A study of Mus musculus with 9 samples.

Results

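The 64 genes whose symbol begins with Serpin, out of 24532 genes in the deposited table, were followed in mouse skin keratinocytes over the first postnatal weeks. All members of the serpin family in the table were taken by symbol, with no use of their values, and were ordered by clade letter: 26 of clade a, 27 of clade b and 11 of clades c to i. The groups were keratinocytes of C57BL/6 mice at postnatal day 1, day 7 and day 14, with 3 libraries at each day and no treatment or altered allele. The cells came from fresh skin by flow sorting for absence of CD45.2, a pan-leukocyte surface marker, and of propidium iodide, a dye that enters dead cells. Stranded mRNA libraries were sequenced. No keratinocyte marker was used in that gate, so other viable skin cells that lack CD45.2 could be among those sorted. The labels give no sex. They also leave unsaid if different mice stand behind the 3 libraries of each day, so that the spread used in the tests may be technical. The libraries held 50670191 to 62970768 counts.

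Serpins are protease inhibitors that act as bait: the protease cuts an exposed loop of the serpin and is trapped in a covalent complex, so each molecule is spent after a single use. Clade a holds secreted proteins of the alpha-1-antitrypsin and antichymotrypsin type, many of them made by liver, and mice carry many local copies of these genes. Clade b proteins lack a classical signal peptide and mostly stay inside cells. Several are abundant in stratified epithelia, where proteases of the kallikrein, cathepsin and plasminogen activator families act in shedding of the cornified layer, in cell death and in repair. Clades c to i hold antithrombin, heparin cofactor II, protease nexin 1, C1 inhibitor, neuroserpin and the collagen chaperone HSP47, which has the serpin fold but inhibits no protease.

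Levels are given in CPM, the counts of a gene relative to the library total, which was scaled by TMM (trimmed mean of M values). Values of 3 libraries are listed in the order 4, 5, 6 for days 1 and 14 and 1, 2, 3 for day 7, the numbers in the column headers. A difference was called where the adjusted p-value of edgeR's quasi-likelihood test, with Benjamini-Hochberg adjustment over all 14507 genes tested, was under 0.05. Of the 64 serpins, 32 passed the filter on low counts and were tested, 12 had some counts but were not tested, and 20 had 0 counts in all 9 libraries. A filter on low counts keeps a gene that is high at a single day, so the counts over these 32 describe them and not the family. Keratinocyte markers were abundant at each day: the 8 listed genes (Krt5, Krt14, Krt1, Krt10, Krt15, Trp63, Dsp and Cdh1) summed to 52104 to 59764 CPM at day 1, 60957 to 63436 CPM at day 7 and 47953 to 50265 CPM at day 14. The days also differed in other ways: the column headers of day 7 follow another naming style, and sex-linked transcripts moved with day. The female-specific transcript Xist had 0 counts in each day 7 library and the Y-linked gene Ddx3y had 0 counts in each day 14 library. Each day 1 library held both, Xist at 861 to 1642 CPM and Ddx3y at 29.0 to 55.6 CPM. Sex composition and day therefore cannot be told apart.

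The serpins with 0 counts in all 9 libraries were Serpina1a, Serpina1b, Serpina1c, Serpina1d, Serpina1e and Serpina1f (the alpha-1-antitrypsin copies), Serpina3a, Serpina3k and Serpina3m, Serpina6 (corticosteroid-binding globulin), Serpina10 (protein Z-dependent protease inhibitor), Serpinb6d, Serpinb9b, Serpinb9c, Serpinb9d, Serpinb9f and Serpinb9g, Serpind1 (heparin cofactor II), Serpine3 and Serpini2. A count of 0 allows up to 3 counts per library, which is 0.0472 CPM at day 1, 0.0514 CPM at day 7 and 0.0587 CPM at day 14 on average; such limits cover counting error only. Near-identical copies may lose reads in counting: 29.5% to 74.2% of the 50-base words of Serpina1a to Serpina1e and 30.8% to 78.7% of those of Serpinb9d, Serpinb9f and Serpinb9g occur in other genes, so their 0 counts are less certain. Of 5 liver markers, Alb, Ttr and Fgb were at 0 counts in all 9 libraries, Ahsg had at most 2 counts in a library, and Apoa1 had 7 to 46 counts in each library. The 12 with some counts reached at most 26 counts in a library, in Serpina12 (vaspin), and included Serpinc1 (antithrombin) with at most 13 counts and Serpinb13, known from human stratified epithelium, with at most 4 counts. The others were Serpina3n, Serpina4-ps1, Serpina7 (thyroxine-binding globulin), Serpina11, Serpina16, Serpinb1c, Serpinb3d, Serpinb6e and Serpinb9e, each with at most 10 counts.

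Levels of different genes were compared as CPM per kb, the CPM divided by the length of the gene's longest protein-coding transcript in GENCODE M21 (of its longest transcript, where none is coding). Of the 64 serpins, 62 were matched to that annotation by gene ID and 2 by symbol. Which transcripts the cells use was not tested, so an order between genes rests on these lengths. The summed level of all serpins was 565 ± 39.8 CPM per kb at day 1, 682 ± 16.8 at day 7 and 1289 ± 86.3 at day 14 (SD, n = 3 each), with the 3 day 14 libraries above all 6 others. Serpinb5, known as maspin, held the largest share of that sum at day 1 (31.9%) and day 7 (26.8%) and 17.6% at day 14. Serpinb2, plasminogen activator inhibitor 2, held 2.84% at day 1, 9.18% at day 7 and 53.3% at day 14. It was the sixth in the order of levels at day 1, the fifth at day 7 and the first at day 14. Its own level was 16.1 CPM per kb at day 1, 62.6 at day 7 and 689 at day 14. Most of the rise in the summed level from day 1 to day 14 was therefore that of Serpinb2. Clade b as a whole held 69.7% of the summed level at day 1, 70.02% at day 7 and 89.3% at day 14, whereas clade a held 13.8%, 20.8% and 6.99% at these days. The summed level of clade a itself was 78.05 ± 2.63 CPM per kb at day 1, 142 ± 10.8 at day 7 and 89.9 ± 2.196 at day 14 (SD, n = 3 each).

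Neighbours in this order were not always separated. At day 1, Serpinb5 (179.7 ± 7.48 CPM per kb) was followed by Serpinb10 (83.2 ± 21.3), Serpinh1, the collagen chaperone (81.98 ± 26.6), Serpinb6a, an intracellular inhibitor of trypsin-like proteases and cathepsin G (66.98 ± 5.15), and Serpina3h (59.8 ± 1.67). The libraries of Serpinh1 overlapped those of the other 3 that followed Serpinb5, and the libraries of Serpinb10 overlapped those of Serpinb6a. At day 7 the order by CPM per kb was Serpinb5 (183 ± 3.28), Serpinb6a (112 ± 5.53), Serpina3h (101 ± 9.16), Serpinb10 (70.2 ± 2.24), Serpinb2 (62.6 ± 3.06) and Serpinh1 (55.9 ± 23.6). Serpinb6a and Serpina3h lay within their joint SDs there, and Serpinh1 overlapped both Serpinb10 and Serpinb2. At day 14, Serpinb2 (689 ± 87.5 CPM per kb) stood above Serpinb5 (226 ± 13.5) and Serpinb6a (106 ± 0.701), with gaps larger than the SDs. Serpina3h (69.2 ± 1.41 CPM per kb) and Serpinb10 (67.3 ± 3.79) overlapped one another, and Serpinh1 (39.6 ± 11.4) followed below both.

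**Figure D1:**
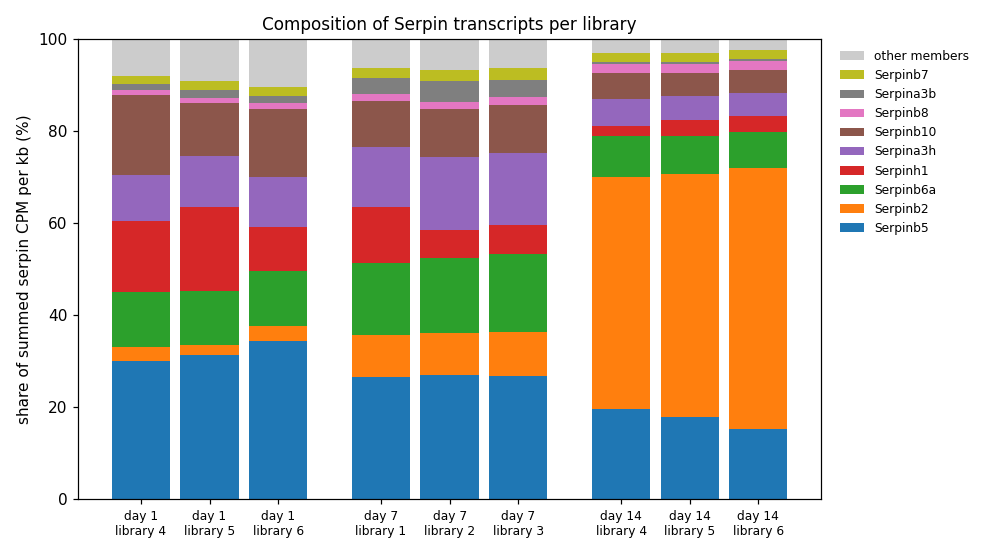
Share of the summed serpin CPM per kb (percent, y axis) held by the 9 leading serpins and all other members in each of the 3 libraries of days 1, 7 and 14 (x axis). Serpinb5 is the largest segment in the libraries of days 1 and 7, and Serpinb2 is the largest in those of day 14, with a mean share of 53.3%.

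At day 7 compared with day 1, 11 of the 32 tested serpins were higher and 6 lower, against 25.5% of all tested genes called higher and 24% called lower. The genes that rose were Serpinb2, Serpinb7, Serpinb8, Serpinb6a, Serpinb6c, Serpinb1a and Serpinb3b of clade b and Serpina3b, Serpina3c, Serpina3g and Serpina3h of clade a. The genes that fell were Serpinb11, Serpinb12, Serpinb1b, Serpinb3c and Serpinb6b of clade b and Serpine2. At day 14 compared with day 7, 7 were higher and 12 lower, where 32.5% and 35.1% of all tested genes were called. At day 14 compared with day 1, 10 were higher and 13 lower, where the background was 35.5% and 38.4%. A difference among the 3 days was called for 24 of the 32, while 82.1% of all tested genes had such a call, so serpins were not called more often than other genes. Their median log2 change was 0.12 at day 7 versus day 1, -0.07 at day 14 versus day 7 and -0.17 at day 14 versus day 1, beside -0.00053, -0.03 and -0.05 over all tested genes. In bulk RNA, fewer cells of a type and less RNA per cell cannot be told apart.

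By clade, the 9 tested genes of clade a gave 4 higher and 0 lower at day 7 versus day 1, 2 higher and 7 lower at day 14 versus day 7, and 3 higher and 5 lower at day 14 versus day 1. The 16 tested genes of clade b gave 7 higher and 5 lower at day 7 versus day 1, 4 higher and 5 lower at day 14 versus day 7, and 5 higher and 7 lower at day 14 versus day 1. Over all tested genes, 25.5% were called higher and 24% lower at day 7 versus day 1. The shares were 32.5% and 35.1% at day 14 versus day 7, and 35.5% and 38.4% at day 14 versus day 1. Scaled by library totals alone, the median log2 change of all tested genes was -0.10, -0.21 and -0.32 in these comparisons, and 35.7%, 34.9% and 31.9% of all called genes were higher, where TMM scaling gave 51.5%, 48.1% and 48.1%. The serpin calls at day 14 versus day 1 were then 7 higher and 17 lower.

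**Figure D2:**
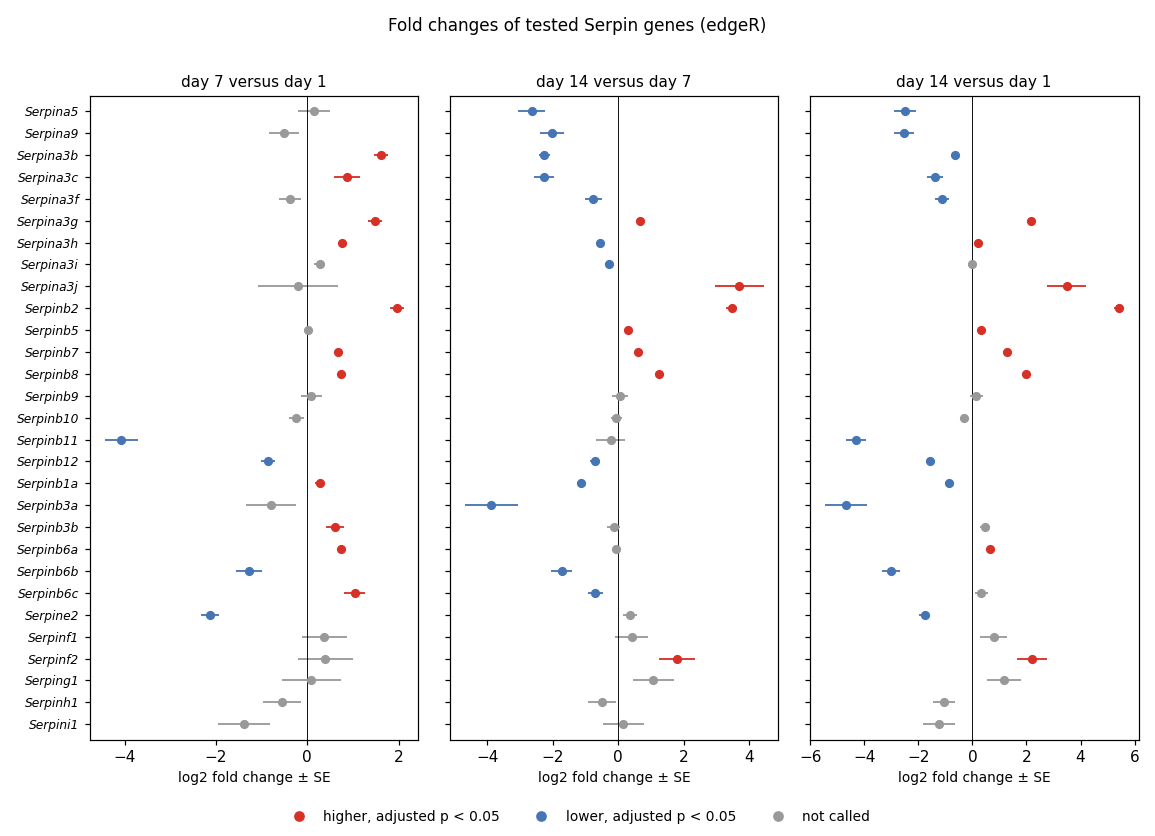
Log2 fold change (x axis, bars are SE) of 29 tested serpins in the 3 comparisons of days, with genes called higher in red, genes called lower in blue and genes not called in grey; Serpinb1b and Serpinb3c, which had 0 counts at a day, are left out. Serpinb2 lies furthest to the right at day 14 versus day 1, at 5.42.

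Of the tested serpins, Serpinb2 had the largest increase at day 7 and at day 14 relative to day 1. This inhibitor of urokinase and tissue plasminogen activators lies at chr1:107500892-107525600 (GRCm38). It had 36.4, 25.3 and 34.6 CPM at day 1, 125, 119 and 131 CPM at day 7 and 1208, 1361 and 1557 CPM at day 14. Every day 14 library was above every day 7 library, and these were above every day 1 library. The change was 3.89-fold at day 7 versus day 1 (log2 1.96 ± 0.15, SE, adjusted p = 1.92e-05), 11-fold at day 14 versus day 7 (log2 3.46 ± 0.16, adjusted p = 4.34e-07) and 42.8-fold at day 14 versus day 1 (log2 5.42 ± 0.17, adjusted p = 2.66e-08). At day 14 versus day 7, Serpina3j, which averaged 0.967 ± 0.472 CPM at day 14 and 0.0698 ± 0.0657 CPM at day 7, had a larger fitted change (log2 3.70 ± 0.74, adjusted p = 0.000742). The exons of Serpinb2 overlap those of the next gene, Serpinb10, by 291 bases on the same strand in the GENCODE annotation, and 10.4% of the 50-base words of Serpinb2 also occur in Serpinb10, so reads from that stretch could have been counted for either gene.

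Serpinb10, called bomapin in humans, is annotated as protein-coding by RefSeq and as a polymorphic pseudogene by GENCODE. The length used for it was 1265 bases, while its GENCODE transcripts hold 3486 distinct 50-base words. Its place in the order of levels depends on that length. It stood at 134, 80.4 and 101 CPM at day 1, 87.2, 87.1 and 92.1 CPM at day 7 and 85.3, 80.2 and 89.7 CPM at day 14. The days overlapped, the spread at day 1 was the widest, and the gene was called in none of the 3 comparisons (adjusted p = 0.266 at day 7 versus day 1, 0.763 at day 14 versus day 7 and 0.133 at day 14 versus day 1). Without library 5 of day 1, which held its lowest day 1 value, the calls at day 7 and at day 14 versus day 1 passed as lower (log2 -0.41, adjusted p = 0.0112, and log2 -0.48, adjusted p = 0.00247). At day 14 versus day 1 it was also called lower with DESeq2 (log2 -0.29, adjusted p = 0.0428) and with library totals alone (log2 -0.58, adjusted p = 0.0147).

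Serpinb7 and Serpinb8, clade b genes on either side of the pair Serpinb2 and Serpinb10, rose as well. In humans, loss of SERPINB8 and of SERPINB7 causes disorders of the cornified layer with peeling or palmoplantar thickening. Serpinb8 had 30.02, 28.5 and 31.5 CPM at day 1, 47.8, 49.9 and 52.8 CPM at day 7 and 115, 121 and 119 CPM at day 14. It rose 1.67-fold at day 7 versus day 1 (log2 0.74 ± 0.05, adjusted p = 3.46e-07) and 2.36-fold at day 14 versus day 7 (log2 1.24 ± 0.05, adjusted p = 2.01e-09), and no libraries of different days overlapped. Serpinb7 had 17.8, 19.8 and 19.2 CPM at day 1, 26.6, 31.8 and 32.5 CPM at day 7 and 43.6, 46.2 and 47.8 CPM at day 14. It also rose at each step without overlap, 1.60-fold at day 7 versus day 1 (log2 0.68 ± 0.08, adjusted p = 1.94e-05) and 1.51-fold at day 14 versus day 7 (log2 0.60 ± 0.08, adjusted p = 2.46e-05).

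Serpinb5, the most abundant serpin at the first 2 times, is a serpin that inhibits no known protease and is known as a tumour suppressor of epithelia. It had 491, 457 and 492 CPM at day 1, 491, 478 and 494 CPM at day 7 and 632, 616 and 563 CPM at day 14. Days 1 and 7 overlapped (log2 0.02 ± 0.05, adjusted p = 0.747), whereas all day 14 libraries were above both. It was 1.24-fold higher at day 14 than at day 7 (log2 0.31 ± 0.05, adjusted p = 0.000178) and 1.26-fold higher at day 14 than at day 1 (log2 0.33 ± 0.05, adjusted p = 7.68e-05). Scaled by library totals alone, the difference between day 14 and day 1 was log2 0.06 and was no longer called (adjusted p = 0.317).

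**Figure D3:**
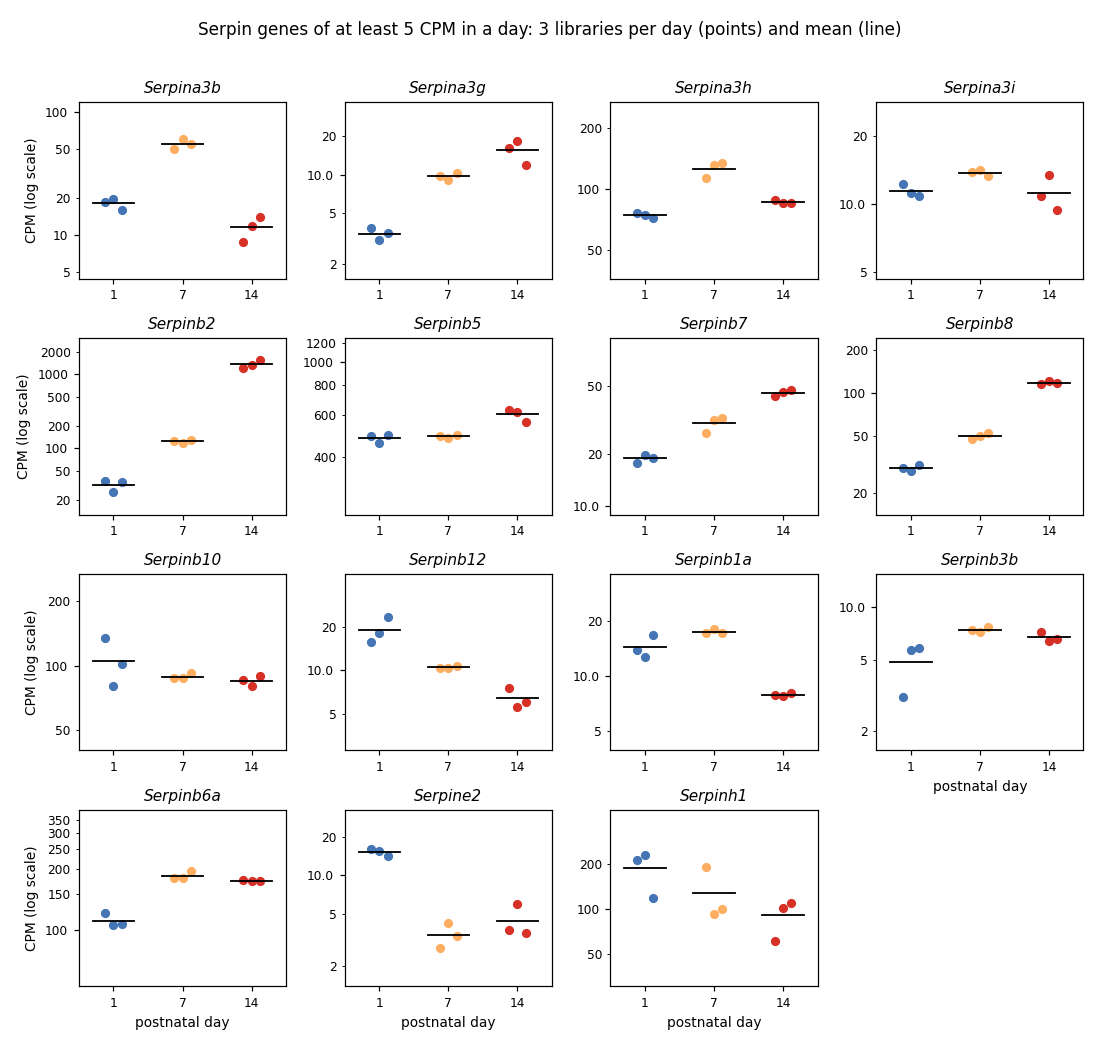
CPM (log scale, y axis) in each of the 3 libraries per day (points) and their mean (line) at days 1, 7 and 14 (x axis) for 15 serpins with a mean of at least 5 CPM at a day. Serpinb2, Serpinb7 and Serpinb8 are higher at each later day, Serpinb12 is lower at each later day, and Serpina3b peaks at day 7.

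Other genes of the same stretch of chromosome 1 fell. Serpinb12, an intracellular inhibitor of trypsin-like proteases, had 15.8, 18.3 and 23.5 CPM at day 1, 10.4, 10.4 and 10.8 CPM at day 7 and 7.61, 5.54 and 6.07 CPM at day 14. The days did not overlap, and it fell 1.82-fold at day 7 versus day 1 (log2 -0.86 ± 0.15, adjusted p = 0.000523) and 1.65-fold at day 14 versus day 7 (log2 -0.72 ± 0.15, adjusted p = 0.00138). Serpinb11 had 4.50, 4.05 and 5.48 CPM at day 1, 0.268, 0.163 and 0.406 CPM at day 7 and 0.200, 0.377 and 0.119 CPM at day 14. All day 1 libraries were above 4 CPM and the other 6 were under 0.5 CPM. It was 16.9-fold lower at day 7 than at day 1 (log2 -4.08 ± 0.36, adjusted p = 2.1e-06) and 19.8-fold lower at day 14 than at day 1 (log2 -4.31 ± 0.38, adjusted p = 4.37e-07).

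The Serpinb3 copies, relatives of the human squamous cell carcinoma antigens that inhibit papain-like cysteine proteases, did not move together. Serpinb3c had 1.79, 2.35 and 2.16 CPM at day 1 and 0 counts in all 6 libraries of days 7 and 14. It was at least 40.8-fold lower at day 7 than at day 1 (adjusted p = 9.75e-06) and at least 35.8-fold lower at day 14 than at day 1 (adjusted p = 3.57e-06), with a 0 taken as at most 3 counts per library. Serpinb3b had 3.09, 5.71 and 5.86 CPM at day 1, 7.37, 7.17 and 7.64 CPM at day 7 and 7.21, 6.39 and 6.57 CPM at day 14. All day 7 and day 14 libraries were above all day 1 libraries, and days 7 and 14 overlapped. Serpinb3b was 1.52-fold higher at day 7 than at day 1 (log2 0.60 ± 0.20, adjusted p = 0.0245), a call lost without library 1 of day 7 (adjusted p = 0.056), without library 3 of day 7 (0.0701) and in a fit of those 2 days alone (0.0539). At day 14 versus day 1 it was not called (log2 0.46 ± 0.20, adjusted p = 0.0516), but passed with DESeq2 (adjusted p = 0.0283) and limma-voom (0.0345). Serpinb3b shares 14.7% of its 50-base words with other genes and Serpinb3c 12.2%. Summed over the 4 copies, the Serpinb3 group showed log2 0.01 ± 0.15 at day 7 versus day 1 (adjusted p = 0.966) and -0.22 ± 0.15 at day 14 versus day 1 (adjusted p = 0.208).

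The clade b genes of chromosome 1 lie within 748 kb (chr1:106861175-107608978), and their promoters are shown because near neighbours there moved in opposite directions. RefSeq promoter sequences of 300 bases (250 before the annotated start and 50 after, GRCm38.p6) were available for 53 of the 64 serpins and for 11 of the 12 genes of this stretch. Written 5′ to 3′ on the gene's strand, the first 3 belong to genes that were higher at both later days, the next 3 to genes that were lower than at day 1, and the last to Serpinb3b, whose promoter is 90.0% identical to that of Serpinb3c (279 of 310 aligned columns). Capitals mark matches to TATAAA (a core promoter box), TGANTCA (an AP-1-like core with any middle base) or TTCNNNGAA (STAT), on either strand.
Serpinb2 chr1:107511173-107511472, plus strand: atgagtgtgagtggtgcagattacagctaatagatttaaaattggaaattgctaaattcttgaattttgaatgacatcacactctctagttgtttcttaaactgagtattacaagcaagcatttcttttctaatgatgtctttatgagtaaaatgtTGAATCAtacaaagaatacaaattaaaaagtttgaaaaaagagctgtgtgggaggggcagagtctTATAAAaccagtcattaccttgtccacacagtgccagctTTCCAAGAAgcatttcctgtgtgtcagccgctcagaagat
Serpinb7 chr1:107422439-107422738, plus strand: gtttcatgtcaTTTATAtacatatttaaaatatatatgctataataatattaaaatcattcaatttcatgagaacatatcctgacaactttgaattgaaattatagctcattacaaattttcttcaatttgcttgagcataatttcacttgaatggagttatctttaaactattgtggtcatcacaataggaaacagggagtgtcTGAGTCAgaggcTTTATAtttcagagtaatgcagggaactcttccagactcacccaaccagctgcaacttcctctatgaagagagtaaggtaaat
Serpinb8 chr1:107589756-107590055, plus strand: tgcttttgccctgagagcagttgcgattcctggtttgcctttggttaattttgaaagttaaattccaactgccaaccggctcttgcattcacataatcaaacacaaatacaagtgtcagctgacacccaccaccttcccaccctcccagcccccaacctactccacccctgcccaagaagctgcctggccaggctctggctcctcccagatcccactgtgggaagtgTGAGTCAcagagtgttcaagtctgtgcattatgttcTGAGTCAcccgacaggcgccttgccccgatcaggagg
Serpinb11 chr1:107362064-107362363, plus strand: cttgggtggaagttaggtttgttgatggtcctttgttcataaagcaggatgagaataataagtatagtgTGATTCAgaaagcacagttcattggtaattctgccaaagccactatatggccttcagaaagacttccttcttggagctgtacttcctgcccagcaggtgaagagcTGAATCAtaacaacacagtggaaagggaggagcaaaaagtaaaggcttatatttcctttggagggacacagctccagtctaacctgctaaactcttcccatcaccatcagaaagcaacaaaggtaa
Serpinb12 chr1:106934199-106934498, plus strand: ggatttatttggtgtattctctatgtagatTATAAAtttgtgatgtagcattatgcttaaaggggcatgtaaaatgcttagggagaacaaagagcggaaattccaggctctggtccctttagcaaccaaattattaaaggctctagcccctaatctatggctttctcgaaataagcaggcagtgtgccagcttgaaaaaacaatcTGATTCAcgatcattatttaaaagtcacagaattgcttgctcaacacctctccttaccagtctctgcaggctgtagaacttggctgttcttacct
Serpinb3c chr1:107278322-107278621, minus strand: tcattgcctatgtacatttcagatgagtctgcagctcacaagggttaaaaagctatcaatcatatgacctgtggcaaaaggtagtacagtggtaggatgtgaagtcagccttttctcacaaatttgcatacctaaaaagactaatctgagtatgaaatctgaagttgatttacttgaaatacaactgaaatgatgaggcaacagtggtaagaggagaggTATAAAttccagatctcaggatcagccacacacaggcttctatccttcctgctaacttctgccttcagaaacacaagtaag
Serpinb3b chr1:107161065-107161364, minus strand: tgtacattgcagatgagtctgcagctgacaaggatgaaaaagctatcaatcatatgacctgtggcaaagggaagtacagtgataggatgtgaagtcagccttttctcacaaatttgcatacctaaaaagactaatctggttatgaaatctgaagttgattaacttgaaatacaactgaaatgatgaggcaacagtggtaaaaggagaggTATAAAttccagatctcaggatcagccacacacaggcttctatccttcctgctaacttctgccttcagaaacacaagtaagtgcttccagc

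The AP-1-like core TGANTCA, with any middle base, was searched on both strands. It occurred in the promoters of 7 of these 11 chromosome 1 genes (Serpinb5, Serpinb12, Serpinb11, Serpinb7, Serpinb2, Serpinb10 and Serpinb8). It also occurred in 0 of the 14 chromosome 13 clade b genes with a promoter, and in 4 of 18 clade a genes of chromosome 12 (Serpina1a to Serpina1d). That is 11 of the 53 serpins with a promoter, and 12 of their 62 promoters (19.4%), against 7.81% of all 32851 promoters. The promoters of Serpina1a to Serpina1d are 85.21% to 91.39% identical, and both Serpinb2 promoters hold the same match. These matches are therefore not all separate cases. Both genes that rose and genes that fell carried a match to TGANTCA. In Serpinb2 it begins at position -94, in Serpinb7 at -45, in Serpinb12 at -45 and in Serpinb11 at -181 and -76, counted from the first transcribed base as 1. The middle base was G in Serpinb7 and Serpinb8 and C in Serpina1a to Serpina1d. In the other chromosome 1 genes named, among them Serpinb2, Serpinb11 and Serpinb12, it was A or T. Serpinb2 and Serpinb12 each had a second promoter sequence with its own start, and the promoter printed is the upstream one of those available. The annotated span of Serpinb2 begins further upstream, at 107500892, and no promoter sequence was available there. From the second start of Serpinb2 the same AP-1 match lies at -181 and TATAAA at -116, and the second promoter of Serpinb12 holds no AP-1 match. TATAAA was found in 7 of the 11 (Serpinb12, Serpinb3a, Serpinb3d, Serpinb3b, Serpinb3c, Serpinb7 and Serpinb2), against 13.6% of all promoters. It begins at position -29 in Serpinb2, -33 in Serpinb7 (as TTTATA, its opposite strand), -31 in Serpinb3c and -41 in Serpinb3b. Other matches begin at -40 in Serpinb3d, -65 in Serpinb3a, -220 in Serpinb12 and, as a second match, -239 in Serpinb7. The promoters of Serpinb3a, Serpinb3b and Serpinb3c are 74.85% to 90.0% identical, so these are not separate cases. The STAT motif TTCNNNGAA occurred in Serpinb2 alone of the 11, against 8.30% of all promoters. Over the 53 serpins, TATAAA occurred in 15 (29.0% of their 62 promoters) and the STAT motif in 8 (17.7%), against 13.6% and 8.30% of all promoters. The interferon-stimulated response element occurred in 3 of the 53 and AACCNGTT, a Grainyhead-like motif, in 0, against 3.44% and 2.09% of all promoters. These matches are letters in a window and not measured binding, and no matches overlapped in the chromosome 1 promoters.

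On chromosome 13, 15 clade b genes lie between 32842092 and 34002794, of which 6 were tested. Serpinb6a had 121, 105 and 107 CPM at day 1, 179.6, 179 and 195 CPM at day 7 and 176, 173 and 175 CPM at day 14. All libraries of days 7 and 14 were above those of day 1, a 1.67-fold rise at day 7 (log2 0.74 ± 0.06, adjusted p = 7.26e-07) and a 1.58-fold rise at day 14 (log2 0.66 ± 0.06, adjusted p = 4.94e-07) relative to day 1. The day 14 libraries lay just under those of day 7 without a call (log2 -0.08 ± 0.06, adjusted p = 0.226), though scaling by library totals alone called them lower (log2 -0.26, adjusted p = 0.0019). Its exons overlap those of Nqo2 (762 bases), 1110046J04Rik (584 bases) and Ripk1 (241 bases) on the other strand, and reads of these cannot be told apart where counting ignored strand.

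Serpinb1a, an inhibitor of neutrophil elastase and cathepsin G, had 13.9, 12.7 and 16.6 CPM at day 1, 17.1, 18.03 and 17.1 CPM at day 7 and 7.79, 7.79 and 8.0 CPM at day 14. The 3 days did not overlap, with day 7 highest and day 14 lowest. It was 2.21-fold lower at day 14 than at day 7 (log2 -1.15 ± 0.09, adjusted p = 4.97e-07). The rise at day 7 versus day 1 was 1.21-fold (log2 0.27 ± 0.09, adjusted p = 0.0274) and lost its call with library totals alone (adjusted p = 0.125) and without library 4 (0.0815) or 5 (0.106) of day 1 or library 2 (0.0848) or 3 (0.0566) of day 7. Its copy Serpinb1b had 3.95, 3.33 and 4.21 CPM at day 1, 0 counts in all 3 day 7 libraries, and 0, 0 and 0.0398 CPM at day 14. The day 1 libraries were above all others, and Serpinb1b was at least 74.5-fold lower at day 7 than at day 1 (adjusted p = 7.74e-07). At day 14 only 1 library had counts, 2 in all, and the ratio of day 14 to day 1 was 0.00340 (exact 95% interval 0.000411 to 0.0123, for counting error only; adjusted p = 3.01e-07). Summed over the Serpinb1 copies, day 7 versus day 1 was log2 -0.07 ± 0.09 (adjusted p = 0.56) and day 14 versus day 1 was -1.21 ± 0.09 (adjusted p = 1.21e-07).

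Serpinb6b, a relative of Serpinb6a, had 4.63, 2.91 and 3.11 CPM at day 1, 1.2, 1.43 and 1.76 CPM at day 7 and 0.539, 0.226 and 0.557 CPM at day 14, with no overlap between days. It fell 2.43-fold at day 7 versus day 1 (log2 -1.28 ± 0.29, adjusted p = 0.00318) and 3.32-fold at day 14 versus day 7 (log2 -1.73 ± 0.33, adjusted p = 0.00057). The sum over the Serpinb6 copies followed Serpinb6a, at log2 0.71 ± 0.06 at day 7 versus day 1 (adjusted p = 1.16e-06). Among the remaining clade b genes, all with means under 5 CPM, Serpinb6c was higher at day 7 than at day 1 and lower at day 14 than at day 7, Serpinb3a was lower at day 14 than at both earlier days, and Serpinb9, an inhibitor of granzyme B, was called in no comparison, with mean levels of 1.36 to 1.51 CPM. The call of Serpinb6c at day 14 versus day 7 was lost without library 4 of day 14 (adjusted p = 0.0546).

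**Figure D4:**
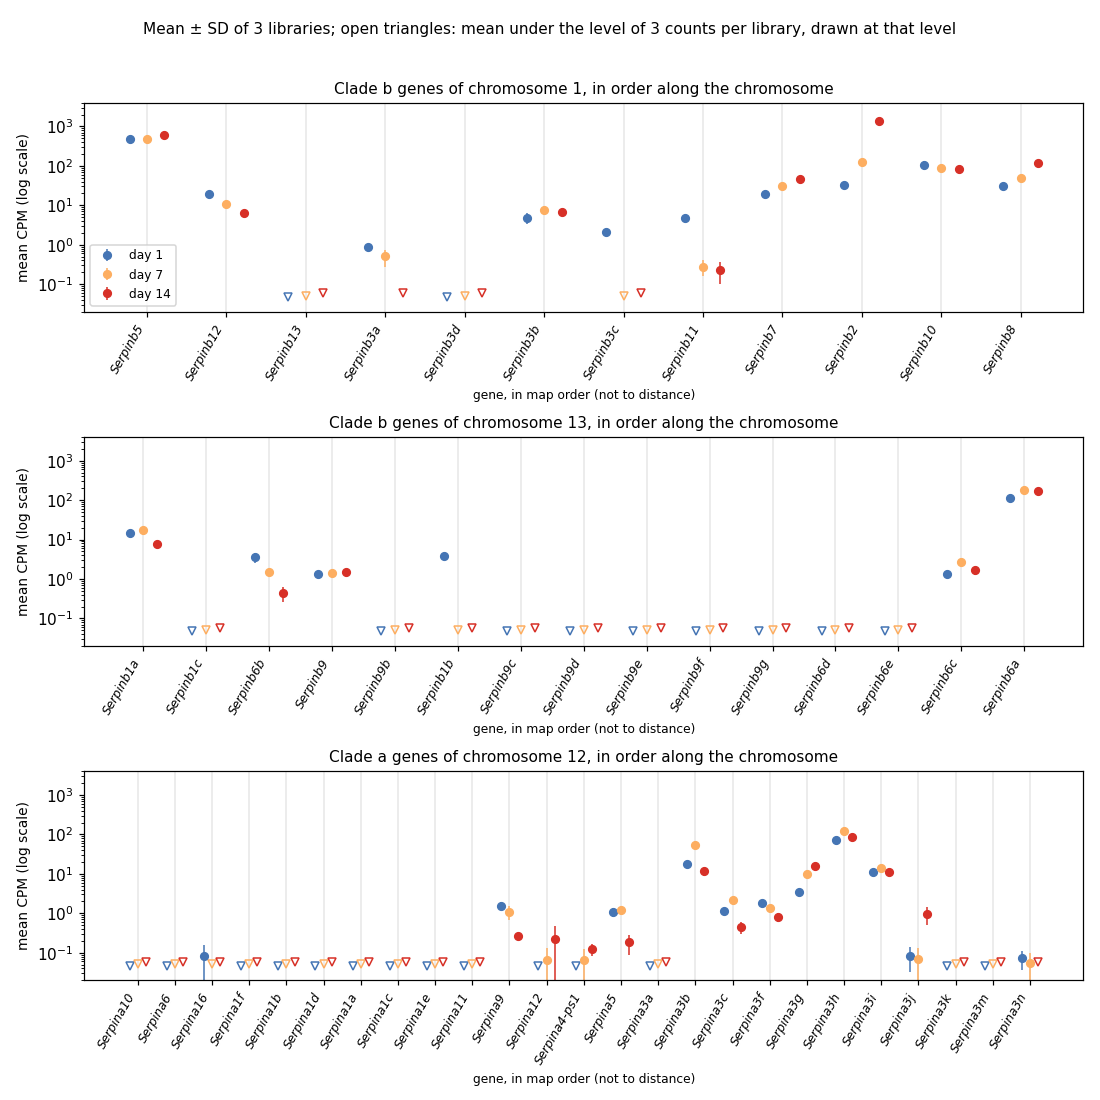
Mean CPM ± SD of 3 libraries (log scale, y axis) at days 1, 7 and 14 for every serpin of the 3 gene clusters, in map order (x axis, not to distance); open triangles mark means under the level of 3 counts per library and are drawn at that level. Genes that rise with day (Serpinb7, Serpinb2, Serpinb8) and genes that fall (Serpinb12, Serpinb3c, Serpinb11) are neighbours on chromosome 1.

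Clade a was led by the Serpina3 copies, mouse relatives of the human antichymotrypsin gene, on chromosome 12. Serpina3h, annotated by RefSeq as a transcribed pseudogene, had 76.01, 74.4 and 71.9 CPM at day 1, 112, 129.96 and 133 CPM at day 7 and 87.8, 84.9 and 84.6 CPM at day 14. The days did not overlap, with day 7 highest and day 1 lowest. It was 1.69-fold higher at day 7 than at day 1 (log2 0.76 ± 0.06, adjusted p = 7.26e-07) and 1.46-fold lower at day 14 than at day 7 (log2 -0.55 ± 0.06, adjusted p = 5.37e-06). At day 14 it was 1.16-fold higher than at day 1 (log2 0.21 ± 0.06, adjusted p = 0.00659), and this small difference turned to log2 -0.06 (adjusted p = 0.379) with library totals alone.

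Serpina3b had 18.6, 19.4 and 16.05 CPM at day 1, 50.1, 60.2 and 54.5 CPM at day 7 and 8.79, 11.7 and 14.05 CPM at day 14. Its day 7 libraries stood above all 6 others and its day 14 libraries below all 6 others. It rose 3.05-fold at day 7 versus day 1 (log2 1.61 ± 0.15, adjusted p = 3.06e-05), fell 4.76-fold at day 14 versus day 7 (log2 -2.25 ± 0.16, adjusted p = 2.02e-06) and ended 1.56-fold lower at day 14 than at day 1 (adjusted p = 0.00477). Serpina3c, at lower levels, had 1.39, 0.949 and 1.19 CPM at day 1, 2.45, 2.23 and 1.76 CPM at day 7 and 0.479, 0.584 and 0.279 CPM at day 14. It too was highest in every day 7 library, 1.83-fold above day 1 (adjusted p = 0.0219) and, in the other step, 4.78-fold lower at day 14 than at day 7 (adjusted p = 3.63e-05). The call at day 7 versus day 1 was lost without library 5 (adjusted p = 0.0789) or 6 (0.0536) of day 1 or library 1 (0.0794) or 2 (0.0586) of day 7.

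Serpina3g, a cytoplasmic inhibitor of cysteine cathepsins known in mouse lymphocytes and myeloid cells, had 3.80, 3.07 and 3.50 CPM at day 1, 9.76, 9.15 and 10.3 CPM at day 7 and 16.3, 18.5 and 11.9 CPM at day 14. Each later day was above the earlier one in every library. It rose 2.81-fold at day 7 versus day 1 (log2 1.49 ± 0.15, adjusted p = 7.52e-06) and 1.60-fold at day 14 versus day 7 (log2 0.68 ± 0.14, adjusted p = 0.00122). The 9 leukocyte markers summed to 5.52 to 6.97 CPM at day 1, 4.12 to 4.44 CPM at day 7 and 14.3 to 14.9 CPM at day 14. Of the 6 tested, 5 were higher at day 14 than at day 7, where 32.5% of all tested genes were called higher. Ptprc, which encodes CD45, had at most 9 counts in a library, and Cd207, a marker of Langerhans cells, had 0 counts at day 1 and 0.941 ± 0.307 CPM at day 14. The part of such cells in the serpin levels was not tested.

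Serpina3i had 12.2, 11.1 and 10.9 CPM at day 1, 13.8, 14.1 and 13.2 CPM at day 7 and 10.8, 13.4 and 9.37 CPM at day 14. Day 14 overlapped both earlier days, and the decrease at day 14 versus day 7 (log2 -0.29 ± 0.11, adjusted p = 0.0371) was lost with DESeq2 (adjusted p = 0.0624), with another size-factor method (0.0586) and without library 1 (0.0678) or 2 (0.0813) of day 7 or library 4 (0.0879) or 6 (0.132) of day 14. Reads can be split among these copies: 21.9% of the 50-base words of Serpina3h, 15.9% of Serpina3i, 15.5% of Serpina3g and 2.92% of Serpina3b occur in another gene. With the 11 Serpina3 genes summed, the group was higher at day 7 than at day 1 (log2 0.91 ± 0.06, adjusted p = 1.06e-07), lower at day 14 than at day 7 (-0.71 ± 0.06, adjusted p = 3.8e-07) and higher at day 14 than at day 1 (0.20 ± 0.06, adjusted p = 0.00758).

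Outside the Serpina3 copies, Serpina9, known as centerin of germinal centre B cells, had 1.27, 1.98 and 1.43 CPM at day 1, 1.52, 0.701 and 1.06 CPM at day 7 and 0.300, 0.264 and 0.239 CPM at day 14. Days 1 and 7 overlapped (adjusted p = 0.209), and all day 14 libraries lay below them, 5.80-fold lower than at day 1 (log2 -2.54 ± 0.36, adjusted p = 4.15e-05). Of the rest of clade a, with means of at most 1.77 CPM, Serpina5 (protein C inhibitor) and Serpina3f were lower at day 14 than at both earlier days, and Serpina3j was higher at day 14 than at both. The call of Serpina3f at day 14 versus day 7 was lost without library 2 of day 7 (adjusted p = 0.0563) or library 6 of day 14 (0.064).

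Of the clades c to i, Serpine2 and Serpinh1 reached 5 CPM and are given in full. Serpine2, protease nexin 1, a secreted inhibitor of thrombin and plasminogen activators made by many mesenchymal cells, had 16.1, 15.5 and 14.03 CPM at day 1, 2.76, 4.26 and 3.38 CPM at day 7 and 3.79, 6.01 and 3.56 CPM at day 14. The day 1 libraries were above all others, and days 7 and 14 overlapped. It was 4.38-fold lower at day 7 than at day 1 (log2 -2.13 ± 0.21, adjusted p = 1.27e-05) and 3.41-fold lower at day 14 than at day 1 (log2 -1.77 ± 0.20, adjusted p = 1.59e-05). The fibroblast and melanocyte markers were also highest at day 1. The 8 fibroblast markers summed to 122 to 226 CPM at day 1, 17.3 to 62.1 CPM at day 7 and 17.01 to 38 CPM at day 14, with Dcn and Col1a2 lower at both later days than at day 1 and the 5 other tested genes not called. The 6 melanocyte markers summed to 397 to 422 CPM at day 1, 109.9 to 131 CPM at day 7 and 8.46 to 11.3 CPM at day 14, and all 6 fell at each step. The 7 mural and muscle markers had their highest sums at day 14 (3.05 to 4.50 CPM, against 1.66 to 2.78 CPM at day 1) and the 6 erythroid markers at day 7 (11.7 to 41.5 CPM, against 0.244 to 1.66 CPM at day 1). The 7 endothelial markers summed to 1.53 to 1.79 CPM at day 1. At days 7 and 14 they summed to 0.677 to 1.96 CPM and 0.736 to 1.28 CPM. For the 5 liver markers the sums were 0.515 to 0.710 CPM at day 1. They were 0.309 to 0.442 CPM at day 7 and 0.139 to 0.547 CPM at day 14. The part of such cells in the fall of Serpine2 was not tested.

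Serpinh1, the collagen chaperone HSP47 of the endoplasmic reticulum, had 213, 229 and 117 CPM at day 1, 189, 92.7 and 99.7 CPM at day 7 and 60.3, 101 and 109 CPM at day 14. Day 7 overlapped both other days, and every day 14 library was below every day 1 library. It was called in no comparison (day 14 versus day 1: log2 -1.05 ± 0.42, adjusted p = 0.0592). DESeq2 (adjusted p = 0.0179), limma-voom (0.0138), library totals alone (0.0252) and fits without library 6 of day 1 (0.0331) or library 1 of day 7 (0.0371) called it lower at day 14 than at day 1. The fibroblast markers given beside Serpine2 were highest at day 1 as well, and their part in the level of Serpinh1 was not tested. The other genes of these clades described here had mean levels of 0.109 to 0.757 CPM. Serpinf2, alpha-2-antiplasmin, was higher at day 14 than at both earlier days, but its call against day 7 was lost without library 2 of day 7 (adjusted p = 0.0504) or library 5 of day 14 (0.0514). Serpinf1 (pigment epithelium-derived factor), Serping1 (C1 inhibitor) and Serpini1 (neuroserpin) were not called. Serpini1 passed as lower than at day 1 with library totals alone (adjusted p = 0.0458 at day 7 and 0.0296 at day 14) and without library 4 of day 1 (0.0288 at day 7 and 0.0266 at day 14).

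Genes of the pathways in which serpins act were taken from lists of proteases, their cofactors and other inhibitors, and are given as counts at day 14 versus day 1. In that comparison 35.5% of all tested genes were called higher and 38.4% lower. Of 9 tested genes of plasminogen activation, 5 were higher and 1 lower. Anxa2 and S100a10, which form a plasminogen receptor, averaged 2758 ± 38.6 and 363 ± 11.7 CPM at day 14, against 1741 ± 19.9 and 224 ± 11.3 CPM at day 1 (SD, n = 3 each). Lrp1, which clears serpin and protease complexes, averaged 308 ± 16.9 CPM at day 14 and 226 ± 4.86 CPM at day 1. All 3 rose (log2 0.66 ± 0.04, 0.69 ± 0.05 and 0.45 ± 0.05, adjusted p = 5.31e-09, 1.03e-07 and 3.53e-06). Plau, the urokinase that Serpinb2 inhibits, was chosen after its values were seen and averaged 79.1 ± 2.61 CPM at day 14 and 70.9 ± 6.91 CPM at day 1 (log2 0.16 ± 0.07, adjusted p = 0.0559). Plat, the tissue plasminogen activator, and Plaur, the urokinase receptor, were likewise chosen after their values were seen. Plat rose and averaged 20.6 ± 1.46 CPM at day 14 and 3.67 ± 0.248 CPM at day 1 (log2 2.49 ± 0.19, adjusted p = 9.81e-07). Plaur fell and averaged 1.06 ± 0.368 CPM at day 14 and 2.32 ± 0.704 CPM at day 1 (log2 -1.13 ± 0.37, adjusted p = 0.015).

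Of 17 tested kallikreins and membrane-bound or secreted serine proteases, 11 were higher and 4 lower at day 14 than at day 1. The shares over all tested genes were 35.5% and 38.4%, here and for the lists that follow. Among the abundant ones that rose were Htra1, a secreted serine protease (log2 0.59 ± 0.06, adjusted p = 8.44e-07), Tmprss4, a membrane protease (log2 1.52 ± 0.14, adjusted p = 1.83e-05), and Klk11, a kallikrein (log2 1.10 ± 0.07, adjusted p = 3.34e-08). The most abundant of the 4 that fell was Klk10, a kallikrein chosen after its values were seen. It averaged 18.1 ± 2.78 CPM at day 14 and 90.7 ± 20.97 CPM at day 1 (log2 -2.32 ± 0.21, adjusted p = 3.06e-05). Of 12 tested lysosomal proteases, 10 were higher and 2 lower. Ctsb averaged 413 ± 5.88 CPM at day 14 and 267 ± 11.3 CPM at day 1, Ctsd 391 ± 14.1 CPM at day 14 and 258 ± 9.18 CPM at day 1, and Ctsl, a target of clade b serpins, 158 ± 6.88 CPM at day 14 and 108 ± 7.54 CPM at day 1 (log2 0.63 ± 0.05, 0.60 ± 0.05 and 0.55 ± 0.06, adjusted p = 7.99e-08, 1.32e-07 and 4.22e-06). Of 11 tested caspases and granzymes, 6 were higher and 3 lower, with Casp14, the caspase of cornification, at 77.7 ± 5.0 CPM at day 14 and 28.7 ± 3.92 CPM at day 1 (log2 1.43 ± 0.09, adjusted p = 4.13e-08).

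Of 13 tested protease inhibitors outside the serpin family, 9 were higher and 4 lower at day 14 than at day 1. Cst3, which encodes cystatin C, averaged 315 ± 25.3 CPM at day 14 and 132 ± 9.37 CPM at day 1 (log2 1.26 ± 0.07, adjusted p = 5.98e-09), and Timp3, a metalloprotease inhibitor, 367 ± 19.8 CPM at day 14 and 200.4 ± 11.4 CPM at day 1 (log2 0.87 ± 0.06, adjusted p = 5.65e-08). Spink5, the kallikrein inhibitor LEKTI, was chosen after its values were seen and averaged 70.6 ± 4.11 CPM at day 14 and 5.51 ± 1.23 CPM at day 1 (log2 3.68 ± 0.15, adjusted p = 1.08e-08). Of 14 tested genes of collagen, its folding and its export, the process that Serpinh1 serves, 5 were higher and 7 lower. Col17a1, a hemidesmosome collagen of basal keratinocytes, rose (log2 0.50 ± 0.09, adjusted p = 0.00056), while Col7a1, the anchoring fibril collagen, fell (log2 -0.50 ± 0.09, adjusted p = 0.000517). With 35.5% of all tested genes called higher and 38.4% called lower, these lists are small, were chosen with results of these libraries known, and are given as counts with no test of the list.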

How the data were processed

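RNA was sequenced from sorted mouse skin keratinocytes, 3 libraries at each of postnatal days 1, 7 and 14. For the mm10 build, the submitters' processing notes list HISAT2 2.1.0, StringTie 1.3.4d, Trimmomatic and bcl2fastq 2.20.0. How reads were assigned to genes, with which strand setting and which annotation, is not given in the sources used here. The authors deposited raw read counts per gene, per the file headers, and all values below were computed from them. The other 18 per-sample columns (TPM and FPKM) were not used. The headers name days 0, 7 and 14; the columns of day 0 were taken as the labels' day 1, the single day left without columns. Header numbers cannot be matched to the numbers in the sample titles.

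Counts were fitted with edgeR 4.0.16 (R 4.3.3) in 1 quasi-likelihood model of 9 libraries with day as a factor, TMM scaling, filterByExpr (minimum count 10) and robust estimation, with Benjamini-Hochberg adjustment over 14507 genes and no fold minimum. An SE is the absolute log2 change divided by the root of F. The computation was tested on simulated data. Full values are given for serpins of at least 5 CPM at a day (1 further gene is not reported here, but stays in all counts and sums), and for up to 6 called genes below it with the smallest adjusted p over the 3 days; from each pathway list at most 3 called genes of highest level are named, unless stated. The serpin family and the gene lists were chosen for description with earlier results of these data known, whereas the genes of the family were then taken by symbol alone. Alternatives were other scalings, DESeq2 1.42.0, limma-voom (limma 3.58.1), no filter, a test against a fold of 1.5, 2-day fits, a replicate block and leaving out each library. Motifs were counted on RefSeq promoters, and shared 50-base words and transcript lengths came from GENCODE M21. Counting error is smallest for abundant genes.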

Additional observations from a re-analysis of the deposited data

How the results depend on the processing

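The counts of called serpins kept within 1.5 times under other size factors, library totals alone, TMM without the 50 most abundant genes, DESeq2, limma-voom, no filter on low counts and fits of 2 days alone. They ranged over 17 at day 7 versus day 1, 18 to 20 at day 14 versus day 7 and 23 to 26 at day 14 versus day 1 (17, 19 and 23 as reported). A test against a fold of 1.5 called 11, 10 and 18 serpins in these comparisons. The share of all tested genes that passed that test is not given here. Leaving out 1 library at a time gave 15 to 18 calls at day 7 versus day 1, 16 to 20 at day 14 versus day 7, 22 to 24 at day 14 versus day 1 and 23 to 26 over the 3 days. Of single serpin changes, Serpina3h at day 14 versus day 1 changed sign, to log2 -0.063 with library totals alone. In that comparison the median log2 change of all tested genes was -0.046 with TMM scaling and -0.319 with library totals alone. The summed serpin level was 1161, 1364 and 2666 CPM at days 1, 7 and 14, and 1266, 1388 and 2404 CPM with library totals alone.

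Days 1 and 14 share header numbers 4 to 6. Same-numbered libraries deviated from their day means with correlations of 0.014, 0.010 and 0.104. Between libraries of different number the correlations were -0.065 to 0.049. With 3 libraries per day, these values cannot settle if same-numbered libraries are pairs. The main fit did not treat them as pairs, and a replicate block by number called 23 serpins at day 14 versus day 1. Depth limits genes under about 1 CPM, where 3 counts are 0.0472 to 0.0587 CPM.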
